A study of Mus musculus with 5 samples.

Results

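The genes described here are 10 mouse genes for cyclic nucleotide phosphodiesterases, the enzymes that break down cAMP and cGMP: Pde10a, Pde1a, Pde1c, Pde3a, Pde4a, Pde4b, Pde4d, Pde5a, Pde7b and Pde8a. They were taken by symbol from a table of 21259 genes, chosen by a list drawn up with their change between the groups already known. Their values with LINE-1 sgRNA and with scramble sgRNA are therefore a description: no p-value is given for them, and the count of them past the threshold used for all genes is printed beside the share of all genes without being read as a test. The study asked how the transcriptome of NIH3T3 cells, an established mouse fibroblast line, differs when LINE-1 retrotransposons are switched on. All cells, controls included, stably carried a CRISPR activator, a catalytically dead Cas9 tied to transcription-activating domains that a guide RNA brings to a promoter. In 3 libraries of the LINE-1 sgRNA group the transfected plasmid encoded a guide against LINE-1, and in 2 libraries of the scramble sgRNA group it encoded a scramble guide; RNA of both groups was collected 48 h later. The activating domains, the guide sequences and whether the line was 1 clone could not be read from the labels.

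Cells make cAMP with adenylyl cyclases, mostly under receptors coupled to the G protein Gs, and cGMP with guanylyl cyclases. Both nucleotides act on protein kinases and on ion channels, cAMP also acts on the exchange factors EPAC, and phosphodiesterases end the signal. PDE4, PDE7 and PDE8 enzymes act on cAMP, PDE5 on cGMP, and PDE1, PDE3 and PDE10 on both. In fibroblasts cAMP is known for opposing the turn to myofibroblasts, and PDE10A is best known from the medium spiny neurons of the striatum.

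Each gene library held 30681384 to 45596490 reads, and 3 reads were worth 2.03 to 3.21 normalized reads, the unit used below. The labels do not say that libraries of a group came from separate cultures, so a p-value reflects the spread from library to library, and that spread may be only technical. Of 14337 genes with a mean of at least 10 normalized reads, 43.5% passed an adjusted p of 0.05 in limma, 18.2% higher and 25.4% lower with LINE-1 sgRNA. That split of 2606 higher and 3637 lower genes turned to 3280 higher and 2136 lower with each library scaled to its table total. The LINE-1 target was read from the repeat table, where 8 of 25 tested mouse L1Md subfamilies rose and 0 fell, against 9.39% of 1257 repeat names that rose; at an unadjusted p of 0.05 limma and edgeR put 0 lower and DESeq2 put 1. The largest L1Md change was 1.06 on the log2 scale. The summed L1Md signal was 300213, 262724 and 305366 with LINE-1 sgRNA, against 321593 and 304971 with scramble sgRNA. The sums overlapped only through the third LINE-1 sgRNA library, and the first and second lay below both scramble sgRNA libraries. The summed L1Md signal was thus not higher with LINE-1 sgRNA. The fibroblast label held: all 10 fibroblast markers were expressed in every library, and 9 of them fell, with summed levels of 475416 to 495598 with LINE-1 sgRNA against 686786 to 744369 with scramble sgRNA. Of 10 markers of striatal neurons 6, the dopamine receptors Drd1 and Drd2 among them, had at most 10 reads in every library. Of the 3 that could be tested Ppp1r1b rose to 75.8 normalized reads, against 20.2 with scramble sgRNA, and Rgs9 (284 with LINE-1 sgRNA and 310 with scramble sgRNA) and Adora2a did not pass. The striatal sums overlapped, at 367 to 451 with LINE-1 sgRNA and 323 to 387 with scramble sgRNA. Of 5 tested pan-neuronal markers 4 rose, Map2, Rbfox3, Syt1 and Tubb3, and Snap25 fell to 127, against 280 with scramble sgRNA. Their sum of 2335 to 2641 with LINE-1 sgRNA against 606 to 684 with scramble sgRNA was mostly Map2, and without it the sums overlapped, at 268 to 376 with LINE-1 sgRNA and 310 to 324 with scramble sgRNA; the part of this list in the phosphodiesterase values was not tested.

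Pde10a (ENSMUSG00000023868.17) lies on chromosome 17 from 8525372 to 8986648 on the plus strand of GRCm38, a span of 461 kb. RefSeq promoter windows, each from 250 bases before to 50 bases after an annotated start, were held for 9 of the 10 genes, 20 windows in all, with none for Pde3a. The windows at the 2 Pde10a starts are shown because Pde10a had the largest difference among the genes that were lower; both are from GRCm38.p6, plus strand, read 5′ to 3′, and capitals mark a GC box (GGGCGG, or CCGCCC on the other strand), the hexamer that Sp1-type factors bind.
Pde10a at chr17:8801495-8801794: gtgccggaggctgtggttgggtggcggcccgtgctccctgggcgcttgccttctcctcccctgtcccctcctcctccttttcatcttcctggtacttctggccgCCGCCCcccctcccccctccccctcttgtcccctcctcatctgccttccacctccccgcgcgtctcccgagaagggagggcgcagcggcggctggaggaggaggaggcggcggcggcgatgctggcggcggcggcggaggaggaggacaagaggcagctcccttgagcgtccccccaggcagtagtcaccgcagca
Pde10a at chr17:8849735-8850034: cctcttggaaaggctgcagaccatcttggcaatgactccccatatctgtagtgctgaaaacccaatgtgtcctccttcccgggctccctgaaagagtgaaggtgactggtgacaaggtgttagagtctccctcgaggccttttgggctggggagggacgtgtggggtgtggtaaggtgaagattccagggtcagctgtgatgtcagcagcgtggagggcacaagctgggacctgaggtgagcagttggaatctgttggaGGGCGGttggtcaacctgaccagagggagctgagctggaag
The first window was 71.3% G and C and the second 56.7%, against a median of 52.7% over 32851 promoter windows. A GC box was found in 6 of the 20 windows, those of 4 of the genes, against 35.7% of all windows.

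The cAMP response element, the site of the cAMP-activated factor CREB, reads TGACGTCA in full. It was found on neither strand in any of the 20 windows, against 1.79% of all windows. Its half-site, TGACG or CGTCA on the other strand, was found in 4 windows of 4 genes, against 20.8% of all windows; a full element also contains it. These 4 are shown as 30 bases around the half-site, in capitals, because these genes encode enzymes that break down the nucleotide acting through this element.
Pde1a, in the window chr2:80038853-80039152, minus strand: gtaacttcagccCGTCAttcctcagtaatt
Pde4b, in the window chr4:102421305-102421604, plus strand: gatttggctgcaCGTCAattttctcatctg
Pde8a, in the window chr7:81213015-81213314, plus strand: gctgctttgcatTGACGccagcagccgctg
Pde4a, in the window chr9:21183851-21184150, plus strand: ggcacagctcgaCGTCAggctggggaggag
The 4 genes did not share a direction: Pde1a and Pde4b were lower and Pde8a was higher with LINE-1 sgRNA, and Pde4a differed little. TATAAA, on either strand, was in 2 of the 20 windows, against 13.6% of all windows. A match of letters is a description of these windows and says nothing of binding.

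Of the 10 genes, 5 were lower and 2 were higher with LINE-1 sgRNA past the threshold used for all genes, against 25.4% and 18.2% of all tested genes, and the other 3, Pde4a, Pde5a and Pde7b, were not past it. Nothing is read from these counts, because the genes were chosen on this contrast. The median of the 10 fitted changes was -0.54 on the log2 scale, against -0.06 over all tested genes. In 9 of the 10 the values of the groups did not overlap, as in 61.8% of all tested genes. None of the 10 overlaps another gene of the table by position. In bulk RNA, fewer cells that express a gene and less of its RNA per cell cannot be told apart.

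**Figure D1:**
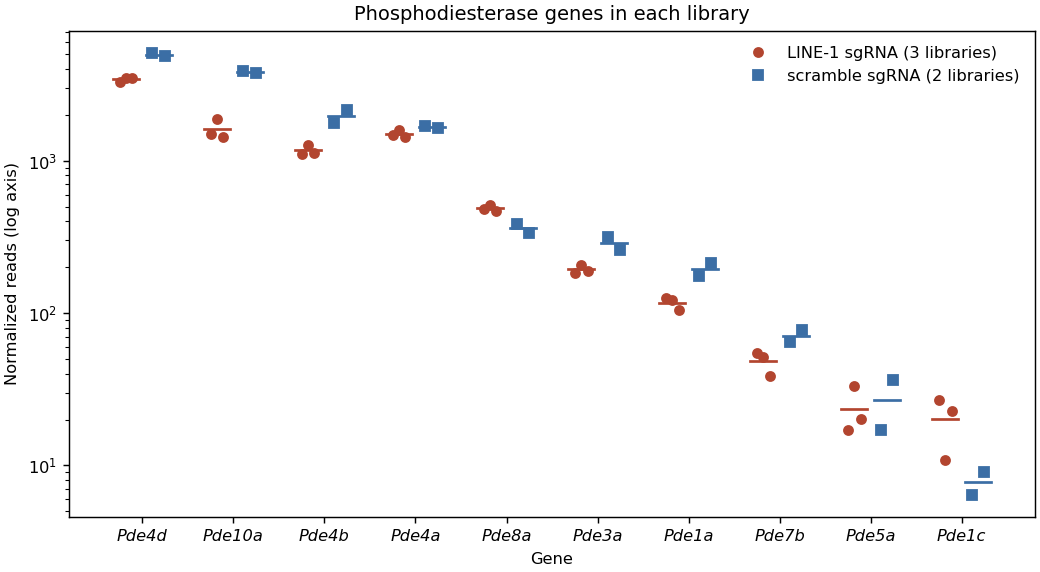
Normalized reads of the 10 phosphodiesterase genes on a log axis, with 1 point for each of 3 LINE-1 sgRNA and 2 scramble sgRNA libraries and a line at each group mean. Pde10a shows the widest gap among the abundant genes, Pde8a and Pde1c are the genes higher with LINE-1 sgRNA, and the groups overlap at Pde5a.

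Pde10a led the enzymes that act on both nucleotides. It had 1497, 1879 and 1438 normalized reads in the LINE-1 sgRNA libraries, against 3886 and 3754 in the scramble sgRNA libraries. Every LINE-1 sgRNA library held fewer than either scramble sgRNA library, with a wide gap between the groups. The mean was 1605 ± 240 with LINE-1 sgRNA and 3820 ± 92.9 with scramble sgRNA (SD, n = 3 and 2), a ratio of 0.420. The fitted change was -1.26 on the log2 scale (SE 0.087). The second LINE-1 sgRNA library was the highest of its group, and the scramble sgRNA libraries lay close together.

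Pde1a and Pde1c encode calcium and calmodulin-activated enzymes and went opposite ways. Pde1a (chromosome 2, 79834453 to 80129458, minus strand) had 125, 122 and 104 normalized reads with LINE-1 sgRNA, against 176 and 215 with scramble sgRNA. Its groups did not overlap, and the fitted change was -0.73 on the log2 scale (SE 0.16). Pde1c (chromosome 6, 56069804 to 56569103, minus strand) had 27.0, 10.8 and 22.8 normalized reads with LINE-1 sgRNA, against 6.42 and 9.09 with scramble sgRNA. That was the largest positive change of the set, 1.20 on the log2 scale with an SE of 0.44, and it rests on 16 to 35 reads a library with LINE-1 sgRNA and on 6 and 10 reads with scramble sgRNA. Only the second LINE-1 sgRNA library came near the scramble sgRNA values. Pde3a (chromosome 6, 141249269 to 141507448, plus strand), the cGMP-inhibited enzyme of heart and vascular smooth muscle, had 184, 207 and 189 normalized reads with LINE-1 sgRNA, against 318 and 258 with scramble sgRNA. Its groups did not overlap, and the change was -0.57 (SE 0.13), with the scramble sgRNA libraries farther apart than the LINE-1 sgRNA libraries. The smooth muscle markers summed to 25373 to 26860 with LINE-1 sgRNA and 31386 to 32229 with scramble sgRNA. Most of these sums was Acta2, at a mean of 20835 with LINE-1 sgRNA against 27546 with scramble sgRNA. Of 5 tested markers 1 was higher, Des at 2084 against 99.1 with scramble sgRNA, and 2 were lower, Acta2 and Smtn. Myocd was at or below 10 reads throughout. The part of these markers in the Pde3a value was not tested.

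The PDE4 genes encode the cAMP-specific enzymes that rolipram inhibits. Pde4d (chromosome 13, 108449948 to 109953461, plus strand, a span of 1504 kb) was the most abundant of the 10, also per kb of exon, with 3302, 3513 and 3483 normalized reads with LINE-1 sgRNA, against 5072 and 4842 with scramble sgRNA. Pde4b (chromosome 4, 102087543 to 102607259, plus strand), a form prominent in inflammatory cells, had 1105, 1275 and 1122 with LINE-1 sgRNA, against 1773 and 2141 with scramble sgRNA. Neither gene's groups overlapped: Pde4d changed by -0.53 on the log2 scale (SE 0.054) and Pde4b by -0.74 (SE 0.084). Pde4a (chromosome 9, 21165714 to 21213248, plus strand) stood apart from both, with 1478, 1582 and 1437 normalized reads with LINE-1 sgRNA, against 1687 and 1644 with scramble sgRNA. Its groups were separate but close, and its change was -0.15 (SE 0.065).

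Pde7b and Pde8a encode cAMP-specific enzymes of high affinity that rolipram does not inhibit. Pde7b (chromosome 10, 20398004 to 20725078, minus strand) had 54.8, 51.4 and 38.5 normalized reads with LINE-1 sgRNA, against 64.2 and 77.3 with scramble sgRNA. The values did not overlap, and its change was -0.55 (SE 0.24). Pde8a (chromosome 7, 81213596 to 81334533, plus strand) had 485, 511 and 466 with LINE-1 sgRNA, against 385 and 335 with scramble sgRNA. It was the abundant gene of the set that was higher, by 0.44 on the log2 scale (SE 0.10), with every LINE-1 sgRNA library above both scramble sgRNA libraries. Pde5a (chromosome 3, 122728947 to 122859374, plus strand), the cGMP-specific enzyme that sildenafil inhibits, had 17.0, 33.1 and 20.1 with LINE-1 sgRNA, against 17.1 and 36.4 with scramble sgRNA. Those ranges overlapped almost wholly, and its change of -0.15 (SE 0.38) turned to 0.04 without the first LINE-1 sgRNA library and to 0.37 without the second scramble sgRNA library.

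Levels were compared between genes as normalized reads per kb of exon. With LINE-1 sgRNA the order was Pde4d at 286 ± 9.55, Pde4a at 196 ± 9.81, Pde10a at 125 ± 18.6, Pde8a at 121 ± 5.54 and Pde4b at 111 ± 8.90 (SD, n = 3). The ranges of Pde10a and Pde8a overlapped, and so did those of Pde8a and Pde4b, so that the third, the fourth and the fifth place were not set apart. Pde1a at 19.5 and Pde3a at 15.2 came next, then Pde7b at 3.87 and Pde5a at 2.38, whose ranges overlapped, and Pde1c at 1.01 was last. With scramble sgRNA Pde4d was again first, at 413 ± 13.5, and Pde10a was second at 297 ± 7.23 (SD, n = 2). Pde4a at 218, Pde4b at 185 and Pde8a at 89.0 followed, then Pde1a at 32.4, Pde3a at 22.6, Pde7b at 5.69, Pde5a at 2.72 and Pde1c at 0.387, with no neighbours in this order overlapping.

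**Figure D2:**
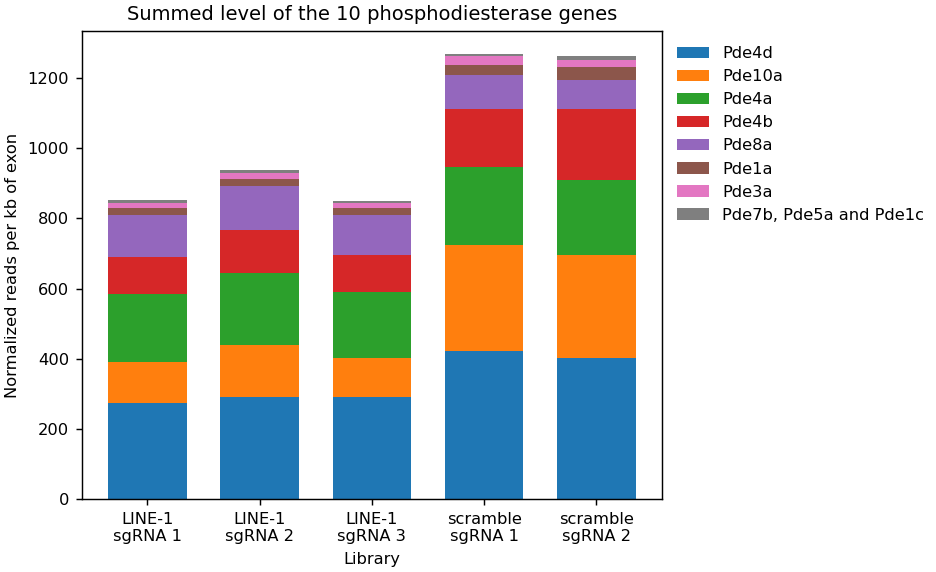
Stacked normalized reads per kb of exon of the 10 phosphodiesterase genes in each library, LINE-1 sgRNA libraries left and scramble sgRNA libraries right. The Pde10a layer is the one that thins most with LINE-1 sgRNA, and the Pde8a layer is thicker there.

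The 10 genes together summed to 8275, 9186 and 8321 normalized reads with LINE-1 sgRNA, against 13385 and 13311 with scramble sgRNA. The sum was 35.6% lower with LINE-1 sgRNA, and still 26.6% lower with Pde10a left out. Pde10a made up 18.1%, 20.5% and 17.3% of the sum with LINE-1 sgRNA, against 29.0% and 28.2% with scramble sgRNA. Pde4d made up 40.0% ± 1.81 with LINE-1 sgRNA and 37.1% ± 1.07 with scramble sgRNA (SD, n = 3 and 2). These shares do not allow for exon length. Per kb of exon Pde10a made up 13.7%, 15.6% and 13.2% with LINE-1 sgRNA, against 23.8% and 23.2% with scramble sgRNA. Pde4d per kb made up 32.3%, 31.2% and 34.1% with LINE-1 sgRNA, against 33.3% and 32.0% with scramble sgRNA. Those Pde4d ranges overlapped. By substrate, the 4 genes for enzymes of both nucleotides summed to 1935 ± 249 with LINE-1 sgRNA and 4311 ± 106 with scramble sgRNA, a ratio of 0.449. Pde10a alone held 1605 of the first mean and 3820 of the second, so this ratio is mostly its own. Singly, Pde1a had a ratio of 0.601, Pde3a 0.671 and Pde1c 2.60. The 5 cAMP-specific genes summed to 6635 ± 266 with LINE-1 sgRNA and 9011 ± 40.3 with scramble sgRNA, a ratio of 0.736. The sums are of reads and not of enzyme activity.

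The phosphodiesterase genes outside the 10 moved in both directions. Of 11 such catalytic subunit genes, 9 could be tested. Of these 9, 2 rose and 2 fell, against 18.2% and 25.4% of all tested genes, and 5 did not pass. Pde9a, which encodes a cGMP-specific enzyme of high affinity, had 39.4, 42.6 and 39.4 normalized reads with LINE-1 sgRNA, against 2.14 and 0 with scramble sgRNA. That is 159 reads in all against 2, a depth-adjusted ratio of 41.3 with an exact 95% counting interval of 11.2 to 344 (limma adjusted p = 1.0e-06), so Pde9a was close to undetected in the scramble sgRNA libraries. Pde2a, which encodes the cGMP-stimulated enzyme, had 53.2, 74.4 and 61.3 with LINE-1 sgRNA, against 5.35 and 19.1 with scramble sgRNA, a change of 2.49 (SE 0.39, adjusted p = 6.3e-05). It shares 3955 exon bases on the same strand with Gm45837, so its reads are uncertain. Pde7a, the paralog of Pde7b, fell to 1216 ± 82.9, against 1588 ± 166 with scramble sgRNA (-0.38, adjusted p = 7.4e-04), and Pde8b, the paralog of Pde8a, fell to 325 ± 28.4, against 454 ± 20.5 with scramble sgRNA (-0.49, adjusted p = 0.0017). Pde8a and Pde8b thus stood on opposite sides.

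The other 5 did not pass. With LINE-1 sgRNA Pde1b averaged 152 normalized reads, Pde4c 22.4, Pde6a 7517, Pde6b 44.9 and Pde11a 19.6. With scramble sgRNA Pde1b averaged 134, Pde4c 14.4, Pde6a 8130, Pde6b 46.8 and Pde11a 11.0. Their adjusted p ran from 0.15 to 0.88. Pde6a, the rod photoreceptor alpha subunit, was the most abundant phosphodiesterase gene of the table per kb of exon, at 1603 ± 133 with LINE-1 sgRNA and 1734 ± 30.1 with scramble sgRNA. Pde3b and Pde6c stayed below the minimum for testing, with means of 1.80 and 5.88 with LINE-1 sgRNA and 0.54 and 12.5 with scramble sgRNA.

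**Figure D3:**
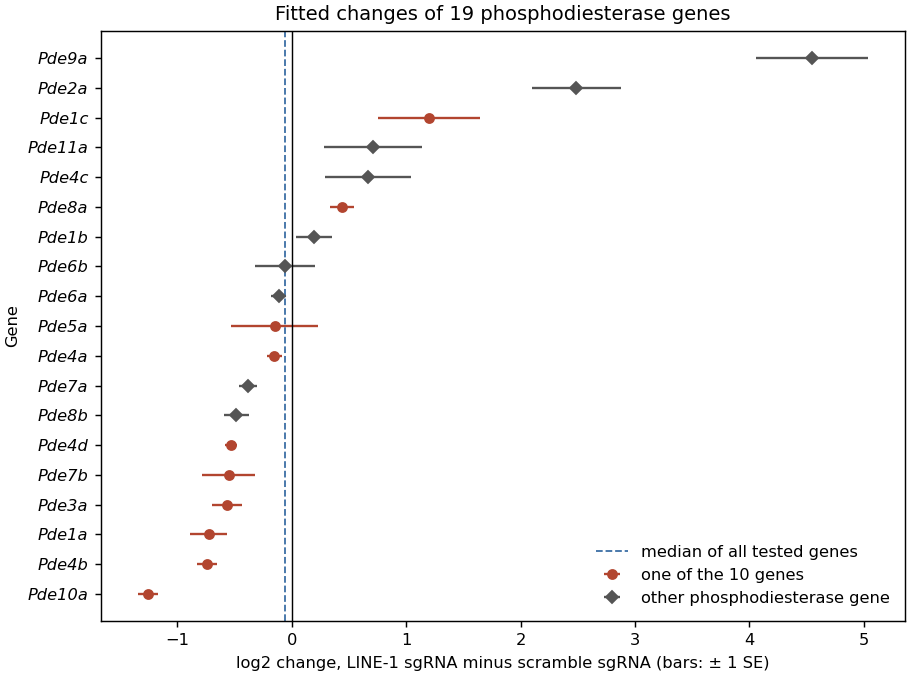
Fitted log2 change, LINE-1 sgRNA minus scramble sgRNA, with bars of 1 SE, for the 19 phosphodiesterase genes that could be tested. Pde9a lies farthest to the right at 4.55 and Pde10a farthest to the left at -1.26, and the dashed line marks the median of all tested genes at -0.06.

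Around these enzymes, 139 genes of cyclic nucleotide signalling were listed, the 11 phosphodiesterases above included, of which 99 could be tested. Of these 99, 21 rose and 33 fell, against 18.2% and 25.4% of all tested genes, and 45 did not pass. With table totals 27 rose and 24 fell. The median change was -0.10, against -0.06 over all genes. The counts of the single lists below stand beside the same shares of 18.2% and 25.4%, and no list was tested as a set. Genes that make the nucleotides moved both ways. Of 8 tested adenylyl cyclases 2 rose and 2 fell. Adcy7, a form regulated by G protein beta-gamma subunits and common in blood cells, rose to 927, 933 and 811 normalized reads, against 101 and 114 with scramble sgRNA (3.04 on the log2 scale, SE 0.11, adjusted p = 4.7e-13). Leukocyte markers summed to 808 to 875 with LINE-1 sgRNA and 714 to 784 with scramble sgRNA, with 3 of 5 tested higher and the T cell marker Cd3e at or below 10 reads in every library; their part in the Adcy7 value was not tested. Adcy9 rose to 1258 ± 33.3, against 820 ± 66.3 with scramble sgRNA (adjusted p = 3.4e-06). Adcy6, a calcium-inhibited form, fell to 3894 ± 42.3, against 5072 ± 4.45 with scramble sgRNA (adjusted p = 1.2e-05), and Adcy4 fell to 68.5 ± 4.22, against 120 ± 7.59 with scramble sgRNA (adjusted p = 0.0021). Among 6 tested guanylyl cyclases and natriuretic peptide receptors 3 rose and 1 fell. Npr1, the receptor of atrial natriuretic peptide, rose to 169 ± 19.8, against 63.7 ± 3.77 with scramble sgRNA (adjusted p = 4.6e-06), and the guanylin receptor gene Gucy2c to 145 ± 11.9, against 65.2 ± 6.15 with scramble sgRNA (adjusted p = 4.7e-05). Npr2 (0.18, adjusted p = 0.028) and the clearance receptor Npr3 (-0.25, adjusted p = 0.020) passed narrowly, and both lost the call under other settings.

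The genes that the nucleotides act on held the smallest p of all the lists. Rapgef3, which encodes the cAMP-activated exchange factor EPAC1, rose to 6842, 7216 and 6479 normalized reads, against 432 and 445 with scramble sgRNA (3.96 on the log2 scale, SE 0.061, adjusted p = 4.6e-18). Its relative Rapgef4, for EPAC2, rose at low level to 69.9 ± 9.62, against 24.3 ± 5.54 with scramble sgRNA (adjusted p = 1.3e-04). The kinase genes that passed were mostly lower: Prkg2, a cGMP-dependent kinase, at 2832 ± 54.2 with LINE-1 sgRNA against 4102 ± 121 with scramble sgRNA (adjusted p = 4.4e-07), Prkar2b, a regulatory subunit of protein kinase A, at 2692 ± 59.3 with LINE-1 sgRNA against 3671 ± 145 with scramble sgRNA (adjusted p = 4.9e-06), Prkacb and Prkar1a. Protein kinase A inhibitor gene Pkig also fell, while the minor regulatory subunit gene Prkar1b, the channel genes Cnga3 and Cngb1 and Popdc2, for a cAMP-binding membrane protein, rose. In all, 7 of 19 tested effector genes rose, not all of them named here, and 5 fell. The catalytic subunit gene Prkaca, at 4282 with LINE-1 sgRNA against 4485 with scramble sgRNA, did not pass (adjusted p = 0.40).

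Of 18 tested genes for anchoring and phosphodiesterase-binding proteins 2 rose and 8 fell, though only 4 fell under the scaling to table totals. Arrb1, for beta-arrestin 1, which brings PDE4 to activated receptors, rose to 1763, 1599 and 1569, against 396 and 329 with scramble sgRNA (2.18, SE 0.088, adjusted p = 2.2e-12). Pde4dip, for the PDE4D-interacting protein myomegalin, rose by 0.27 (adjusted p = 7.9e-04). The A-kinase anchoring genes Akap13 (-0.50, adjusted p = 8.9e-06), Akap1 (-0.36, adjusted p = 6.2e-05) and Akap2 (-0.46, adjusted p = 9.9e-07) fell; Akap2 shares 6891 exon bases with Pakap, so its reads are uncertain. Upstream of the cyclases, 2 of 9 tested Gs-coupled receptor genes rose and 2 fell. The receptor gene Vipr1, for vasoactive intestinal peptide, rose to 244, 224 and 221 normalized reads, against 16.1 and 19.1 with scramble sgRNA (3.64, SE 0.19, adjusted p = 7.7e-11). The parathyroid hormone receptor gene Pth1r rose to 78.2 ± 9.83, against 7.68 ± 3.28 with scramble sgRNA (adjusted p = 2.0e-07) and overlaps Myl3 by 95 exon bases. The adenosine receptor gene Adora2b (-0.58, adjusted p = 3.8e-04) and the prostaglandin E2 receptor gene Ptger4 (-0.26, adjusted p = 0.0034) fell. Of 5 tested G protein alpha genes Gnao1 (-0.28, adjusted p = 3.6e-04) and Gnas, for Gs itself (-0.17, adjusted p = 0.025), fell, the second with 988 exon bases opposite the antisense gene Nespas; Gnai2 (0.12, adjusted p = 0.081) and Gnai3 (-0.10, adjusted p = 0.15) did not pass. Under TMM, table totals, edgeR and DESeq2 Gnas lost its call and Gnai2 gained one, which made the list 1 higher and 1 lower. The cAMP exporter gene Abcc4 rose by 0.51 (adjusted p = 5.6e-06) and Abcc5 fell by 0.22 (adjusted p = 0.026).

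**Figure D4:**
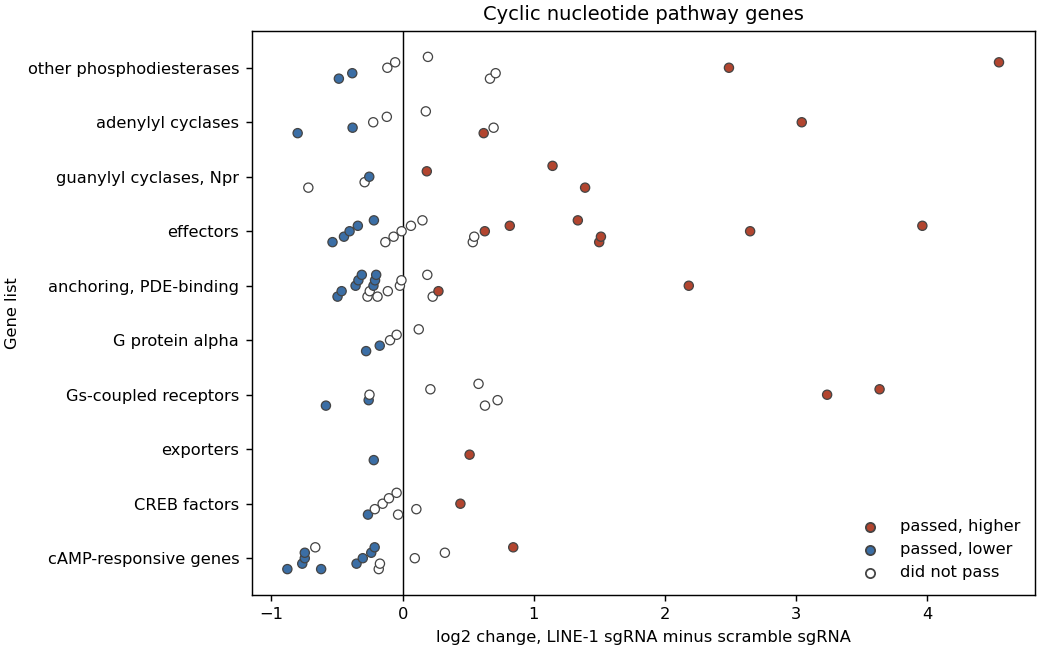
Fitted log2 change, LINE-1 sgRNA minus scramble sgRNA, of the 99 tested genes in 10 lists of cyclic nucleotide signalling, with filled points for those that passed. Rises reach beyond 3 in the rows of other phosphodiesterases, adenylyl cyclases, effectors and Gs-coupled receptors, while no fall passes -0.88.

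Of 15 tested genes known to respond to cAMP through CREB 9 fell and 1 rose, against 25.4% and 18.2% of all tested genes. With TMM, edgeR or DESeq2 7 fell, and with table totals 7 fell and 3 rose. Junb and Per1 were the genes no longer lower under these. The orphan receptor genes Nr4a1 and Nr4a2 fell, Nr4a1 to 3726, 3474 and 3469 normalized reads, against 6195 and 5890 with scramble sgRNA (-0.76, SE 0.055, adjusted p = 6.3e-09), and Nr4a2 to 813 ± 44.9, against 1363 ± 29.6 with scramble sgRNA (adjusted p = 3.8e-07). Rgs2, a regulator of G protein signalling, fell to 719, 669 and 663, against 1298 and 1218 with scramble sgRNA (-0.88, SE 0.077, adjusted p = 7.6e-08). Ptgs2, the inducible cyclooxygenase gene, fell to 12660 ± 331, against 16161 ± 976 with scramble sgRNA (adjusted p = 7.5e-05). The others that fell were Nr4a3, Junb, which shares 173 exon bases with Prdx2 on the other strand, Per1, Sik1 and Ppargc1a, and Fosb, at 191 normalized reads with LINE-1 sgRNA against 106 with scramble sgRNA, was the 1 that rose (adjusted p = 1.7e-04). Many of these genes also respond to serum and stress, so the list is not specific to cAMP. Among 8 CREB factors and coactivators Ep300 rose (0.44, adjusted p = 2.4e-04), Creb1 fell (-0.26, adjusted p = 0.0034), and Crtc3 (-0.15, adjusted p = 0.073) and Crem (-0.21, adjusted p = 0.12) did not pass.

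**Figure D5:**
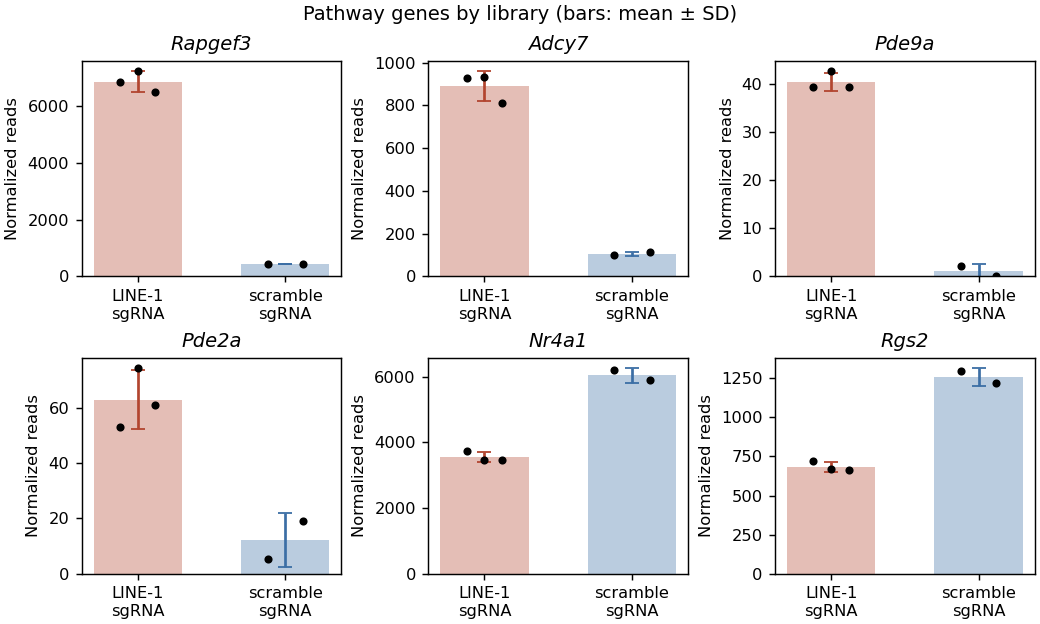
Normalized reads of 6 genes of cyclic nucleotide signalling, with bars at the group mean, error bars of 1 SD and 1 point for each library. Rapgef3, Adcy7, Pde9a and Pde2a are higher with LINE-1 sgRNA, and Nr4a1 and Rgs2 are lower, with no overlap of the groups in any panel.

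The nearest tested genes on either side of the 10, within 500 kb, numbered 16. Of these 16, 3 fell and 0 rose in limma, against 25.4% and 18.2% of all tested genes. At an unadjusted p of 0.05 limma also put 0 higher. At an adjusted p of 0.05 edgeR and DESeq2 each put 1 higher, Dnajc10 after Pde1a (0.08 on the log2 scale in limma). Beside Pde10a, the gene T2 lies 102 kb before it. T2 had 143, 191 and 187 normalized reads with LINE-1 sgRNA, against 259 and 238 with scramble sgRNA (-0.53, SE 0.15, adjusted p = 0.0093). That call was lost without the first scramble sgRNA library (adjusted p = 0.067) and without the variance trend, with a range of 0.0014 to 0.067 over its alternatives. On the other side, 1700010I14Rik begins 1.69 kb after Pde10a and had 113 ± 8.82 with LINE-1 sgRNA and 91.3 ± 20.0 with scramble sgRNA (0.32, adjusted p = 0.17). The other neighbours that fell were Lepr, the leptin receptor gene before Pde4b (-0.61, adjusted p = 0.046), whose call was lost under 11 of the 14 alternatives that tested it, and Rab3c, a vesicle GTPase gene after Pde4d (-0.72, adjusted p = 5.7e-04). In 7 of the 16 the groups did not overlap, a share of 43.8% against 61.8% of all tested genes.

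Among 12116 genes with a mean of at least 50 normalized reads, the profiles over the 5 libraries that lay nearest to that of Pde10a were those of Grik2, Maml3, Elovl6, Cd55 and Kcnk10. Likeness was the Euclidean distance between log2 profiles, each centred on its own mean, and ran from 0.186 for Grik2 to 0.263 for Kcnk10. Grik2, a kainate receptor subunit gene, had 281, 310 and 276 normalized reads with LINE-1 sgRNA, against 667 and 645 with scramble sgRNA. Maml3, a Notch coactivator gene, had 845, 1065 and 785 with LINE-1 sgRNA, against 2057 and 1800 with scramble sgRNA. Elovl6, the fatty acid elongase gene, had 1822, 2011 and 1763 with LINE-1 sgRNA, against 3990 and 4213 with scramble sgRNA. As at Pde10a, the second LINE-1 sgRNA library was the highest of its group at each of these 5 genes. The choice of nearest profiles over all 5 libraries favours such a shared pattern, so it is no separate observation. The log2 changes of these 5 genes, -1.28 to -1.11, were likewise fixed by that choice and were not tested.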

How the data were processed

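Total RNA libraries of 5 samples were sequenced. Per the submitters' processing notes, STAR 2.5.3a, Bowtie2 2.2.9 and DESeq2 were among the tools and mm10 (GRCm38) the build; the sources used here give neither the step each served nor any use of strand in counting. The values deposited by the authors are a signal, read counts divided by a factor per library. All of them were whole multiples of the value of 1 read, within 0.0001 reads (100% of values), so read counts were recovered. The members and lists were chosen with earlier results of these data known. Changes come from limma 3.58.1 (R 4.3.3) with a variance trend on log2(value + 1), which understates changes of low genes, over genes with a mean of at least 10, two-sided, Benjamini-Hochberg over 14337 genes, with a threshold of 0.05. The fits were run on simulated data in which few genes changed, equally in both directions. That run does not bear on the choice of scaling in these data. Alternatives were edgeR 4.0.16 and DESeq2 1.42.0 on recovered counts, TMM, table totals, pseudocounts of 0.5 and 8, no filter, a mean of at least 50, no trend, a replicate block, each library left out and, added after seeing the data, no overlapping genes.

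Positions and exon lengths are from GENCODE M21, which gave 1 position for 21158 of the symbols. Named were the 10 members, every other phosphodiesterase gene, up to 4 genes a list with the smallest p, the neighbours of Pde10a and the 5 nearest profiles; further pathway and neighbouring genes are named mostly to complete a count and were picked after their values were seen. The counting interval covers counting error only. The table of single retroviral loci was not used here, and 1 gene of the effector list is counted but not reported by name.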

Additional observations from a re-analysis of the deposited data

How the results depend on the processing

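The sign of the change held in 9 of the 10 phosphodiesterase genes under every alternative that could test them; Pde5a ran from -0.67 to 0.37 with 1 library left out, positive without LINE-1 sgRNA replicate 1 (0.04) and scramble sgRNA replicate 2 (0.37), at 16 to 49 reads a library. The median change of the 10, -0.54, was -0.46 with table totals, -0.47 with the replicate block and -0.58 to -0.47 with 1 library left out, and the summed PDE signal of the members differed by -35.6%, and by -31.8% with table totals. Over all genes the calls split into 2606 higher and 3637 lower, 41.7% higher, but another scaling alone moved this to 53.2% (TMM) and 60.6% (table totals), and edgeR and DESeq2, which change scaling and test together, gave 54.1% and 53.6%; the genes that were lower numbered 2136 with table totals and 2332 without the variance trend. The median change of all genes moved from -0.06 to 0.02 at most. The cyclic nucleotide genes passing, 54, ranged from 47 to 59 over all alternatives and were 47 without genes that overlap another. The neighbouring genes passing were 5, all 5 lower, with the replicate block. With TMM, table totals, edgeR or DESeq2, all of which change the scaling, 1 was higher, Dnajc10 after Pde1a. Its change in the main fit was 0.08 on the log2 scale and did not pass (limma adjusted p = 0.21). The cause was not tested. Among the pathway and neighbouring genes named, some alternatives ended the calls of Abcc5, Gnas, Npr2, Npr3, Prkar1b, Ep300, Nr4a3, Junb, Per1, Ppargc1a, T2 and Lepr. Some gave a call to Gnai2, Dnajc10, Pde6a and Crem. Pde4c, Crtc3 and Adora2a gained a call only in a fit with a scramble sgRNA library left out. Pde6b, at -0.06, and Prkaca changed sign in some without passing, and no pathway or neighbouring gene passed with the other sign. The labels give replicates 1 and 2 in both groups without saying that a number pairs libraries. Deviations of same-numbered libraries correlated at 0.0687 and 0.137 across 12117 genes. The unmatched LINE-1 sgRNA replicate 3 and scramble sgRNA replicate 1 correlated at 0.0896, between those values. With 2 scramble sgRNA libraries their deviations mirror each other, so these correlations cannot show whether numbers pair libraries. The replicate block gave 2667 genes higher and 3906 lower and 58 cyclic nucleotide genes. In that fit the third LINE-1 sgRNA library has no partner and adds nothing. Depth limits Pde1c and Pde5a, where 3 reads are worth 2.03 to 3.21 normalized reads.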
